A study of Rattus norvegicus with 30 samples.

Results

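The subject is 41 genes of the complement and coagulation systems, taken without their serpin inhibitors, and how their transcripts responded to WY-14643 in cultured rat hepatocytes. A gene was followed through the array's probe sets, groups of short probes read together as 1 signal, whose annotation names that gene alone (the platform's spelling Kng2l1 was read as Kng1l1). Such probe sets existed for 34 of the 41 genes, 48 probe sets in all out of 31099 on the array. All 34 genes passed a filter on low signal that kept 11545 genes of the whole array. Cfb and C2 shared 4 probe sets with each other, Kng1 and Kng2 shared 1 with Kng1l1, and F7, F11 and F13b had none that names them alone, so no value is given for these 7 genes.

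WY-14643 (pirinixic acid) is a synthetic agonist of PPARα, the nuclear receptor that drives fatty acid oxidation and peroxisome growth in rodent liver. The cells were purchased frozen hepatocytes from male Sprague Dawley rats, kept on collagen-coated plates beneath Matrigel and dosed on day 3. The 6 groups were vehicle, 8 µM and 200 µM WY-14643, each at 48 h and at 24 h after dosing, with n = 5 wells and 1 array per well, 30 arrays in all. The vehicle wells are labelled 1% DMSO. Stocks of WY-14643 at 100 times the final dose are also described as in 1% DMSO, which leaves the solvent level of treated wells uncertain. The wells are called independent cultures, but the labels do not say that they came from different animals, and the errors and p-values below measure the spread between wells.

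Complement is a cascade of plasma proteases and binding proteins that marks and lyses microbes. It starts from antibody (C1), from sugars (the mannose-binding lectins) or by slow turnover of C3, and all 3 routes meet at C3 and end in the membrane attack complex. Coagulation is a parallel cascade whose enzymes meet at prothrombin and end in the cleavage of fibrinogen, and fibrinolysis dissolves the clot. Hepatocytes secrete most of these proteins into the blood, several of them in larger amounts during an acute-phase response.

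The cultures carried strong hepatocyte signals. The summed signal of 5 measured hepatocyte markers of 6 (Alb, Ttr, Apoa1, Serpina1 and Hnf4a) lay at 48 h between 213432 and 312475 in vehicle wells, at 248165 to 289921 with 8 µM and at 222901 to 262791 with 200 µM, with overlapping ranges. All 6 measured PPARα target genes of a list of 8 rose in each of the 4 comparisons with vehicle, with a median log2 fold change of 3.35 at 8 µM and 48 h. Markers of other liver cells were present at low signal. For Kupffer cells (8 of 10 genes measured, all above the filter) the sums at 48 h were 3887 to 5368 in vehicle wells, 4496 to 4929 at 8 µM and 3008 to 3571 at 200 µM. At 24 h they were 5914 to 7645, 6064 to 7210.1 and 5308 to 5808 in that order. The 200 µM wells thus lay below vehicle at both times and the 8 µM wells overlapped it. For stellate cells (7 of 7 measured, Lrat and Pdgfrb below the filter) the sums were 4096 to 6695, 3367 to 3932 and 3015 to 3395 at 48 h and 3592 to 4023, 3188 to 3793 and 2816 to 3194 at 24 h. Here both doses lay below vehicle at 48 h, and 200 µM at 24 h. Endothelial sums (5 of 7 measured, Vwf below the filter) overlapped vehicle in each comparison, as at 48 h with 1019 to 1463 at 200 µM against 1214 to 2839.8 in vehicle wells. Cholangiocyte sums (3 of 4 measured, mostly Epcam, with Krt7 below the filter) were 6644 to 7753 at 200 µM against 7974 to 10011 in vehicle wells at 24 h, and overlapped elsewhere. The part of these other cells in the results was not tested. In a well, fewer cells of a type and less RNA per cell cannot be told apart.

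One array stood apart. Replicate 4 of the 48 h vehicle group had a median signal of 765, against 385 to 439 on the other 29, and 73.9% of its probe sets lay above the filter, against 57.9% to 61.2%. Its median correlation with its own group was 0.896, against 0.973 to 0.980 elsewhere. It gave the lowest of the 5 vehicle signals for 29 of the 34 members. Counts are therefore given with and without it.

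Against vehicle, the members mostly fell. An expression change is called here when limma's adjusted p is below 0.05 over all 11545 genes. At 48 h, 24 of 34 members fell at 8 µM (70.6%, against 18.9% of all genes) and 3, Cfd, C8a and F10, rose (8.82%, against 16.7%). At 200 µM and 48 h, 24 fell (70.6%, against 17.1%) and 0 rose (against 16.8% of all genes). Falls thus took a larger share of the members than of all genes, and rises a smaller one. At 24 h, 23 fell at 8 µM (67.6%, against 13.8%) and Cfd alone, 1 gene, rose (2.94%, against 11.1%). At 200 µM and 24 h, 22 fell (64.7%, against 13.1%) and 0 rose (against 11.6%). All genes were not matched to the members on signal or on standard error, whose median over all genes was 0.12. A gene with a smaller standard error passes at a smaller change.

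The median log2 fold change of the members was -0.48 at 8 µM and -0.52 at 200 µM at 48 h, where the medians of all genes were -0.06 and -0.05. At 24 h the members' medians were -0.30 at 8 µM and -0.31 at 200 µM, and those of all genes -0.03 and -0.02. The 2 doses share their vehicle wells, so their agreement is not independent. The 2 times share no wells. Of the members that fell at 8 µM, 20 did so at both times, 83.3% of the 48 h list and 87.0% of the 24 h list. Over all genes that fell, those shares were 54% and 74.2%. At 200 µM 17 members did, 70.8% and 77.3% of the lists, against 56.1% and 73.2% over all genes. Masp2, F2 and F8 were called in none of the 4 comparisons. Without the odd vehicle array, the counts of falls were 25, 27, 27 and 27 in the order above, and those of rises 3, 0, 1 and 0. Of all genes, 20.2%, 18.8%, 17.1% and 16.3% then fell, and 16.8%, 17.2%, 13.7% and 14.6% rose. The falls gained were of F9 at 8 µM and of C8b, F10 and Masp2 at 200 µM at 48 h, and of C8g, F9, F10 and Fgg at 8 µM and C4bpb, C8g, F2, F9 and Fga at 200 µM at 24 h. Centring every array on its own median, with that array kept, lowered the number of calls, with falls and rises counted together. At 48 h they were 18 at 8 µM and 15 at 200 µM, and at 24 h 9 at 8 µM and 10 at 200 µM. The median of all genes moved to 0.13 at 8 µM and 0.12 at 200 µM at 48 h. The same centring on the other 29 arrays gave 26 calls at 200 µM and 48 h, 23 at 8 µM and 24 h, and 20 at 200 µM and 24 h. This alternative was chosen after seeing the data.

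**Figure D1:**
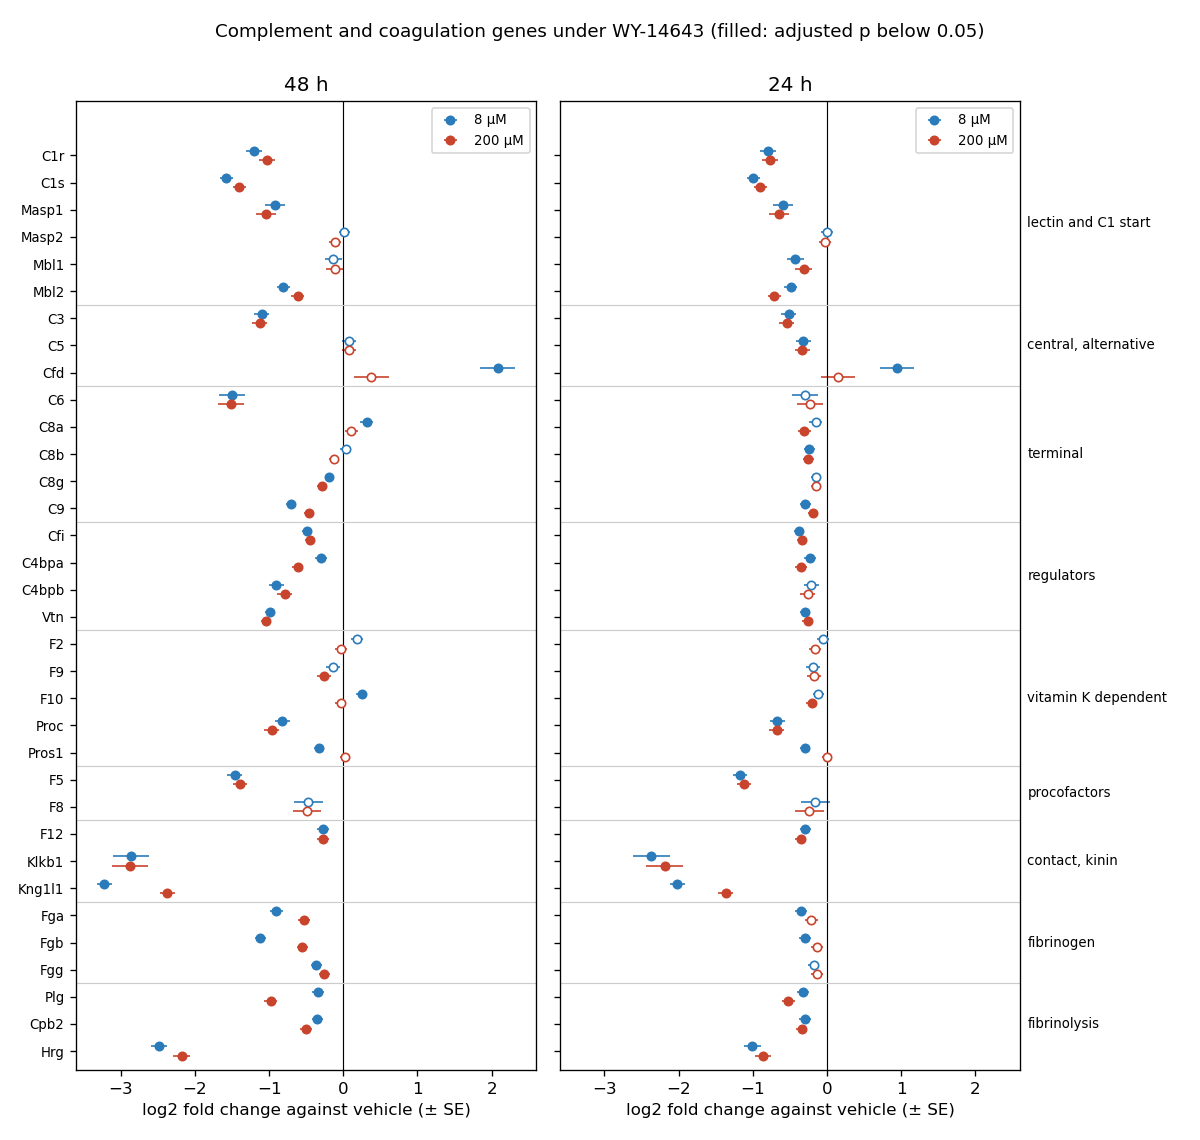
Log2 fold change (± SE from the fit, n = 5 wells a group) of the 34 measured members against vehicle, at 48 h (left) and 24 h (right), grouped by role, with 8 µM in blue and 200 µM in red. Filled points passed the threshold; Klkb1, Kng1l1 and Hrg lie farthest left at 48 h, and Cfd at 8 µM, at 2.08, is the point farthest right.

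The stretches upstream of the start sites are shown for the 5 members with the largest falls at 8 µM and 48 h that have an entry in the RefSeq promoter table (build GRCr8), and for Cfd, which had the largest rise. Each run is the 250 bases before the start site, 5′ to 3′ in the gene's direction. They lie at chr11:91483169-91483418, plus strand (Kng1l1, the first of its 2 listed starts), chr16:53690976-53691225, plus strand (Klkb1), chr2:55573383-55573632, plus strand (C6), chr13:79046407-79046656, plus strand (F5), chr4:159098763-159099012, plus strand (C1r) and chr7:10465497-10465746, minus strand (Cfd). Capitals mark matches, on either strand, to 4 motifs of factors that act in liver: GTTAAT (an HNF1 half-site), TTGCNNAA (C/EBP), AGGTCA (a nuclear receptor half-site) and TGTTTAC (FOXA).
Kng1l1: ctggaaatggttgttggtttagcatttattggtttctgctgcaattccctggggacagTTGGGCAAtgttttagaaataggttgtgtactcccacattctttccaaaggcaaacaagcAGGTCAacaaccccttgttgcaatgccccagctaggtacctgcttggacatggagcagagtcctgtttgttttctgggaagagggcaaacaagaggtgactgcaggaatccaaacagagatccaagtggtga
Klkb1: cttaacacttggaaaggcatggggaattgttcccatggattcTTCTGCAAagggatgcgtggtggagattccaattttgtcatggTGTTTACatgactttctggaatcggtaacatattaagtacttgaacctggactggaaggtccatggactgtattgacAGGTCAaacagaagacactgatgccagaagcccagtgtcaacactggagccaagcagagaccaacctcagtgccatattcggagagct
C6: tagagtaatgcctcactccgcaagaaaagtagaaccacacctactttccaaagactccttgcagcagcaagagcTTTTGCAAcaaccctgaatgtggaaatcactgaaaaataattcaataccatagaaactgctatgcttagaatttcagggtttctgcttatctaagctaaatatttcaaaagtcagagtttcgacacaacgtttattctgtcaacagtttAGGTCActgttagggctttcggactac
F5: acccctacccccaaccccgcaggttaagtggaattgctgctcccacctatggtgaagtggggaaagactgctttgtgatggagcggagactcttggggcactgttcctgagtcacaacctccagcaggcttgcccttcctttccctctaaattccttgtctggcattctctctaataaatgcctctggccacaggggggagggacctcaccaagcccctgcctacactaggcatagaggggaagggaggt
C1r: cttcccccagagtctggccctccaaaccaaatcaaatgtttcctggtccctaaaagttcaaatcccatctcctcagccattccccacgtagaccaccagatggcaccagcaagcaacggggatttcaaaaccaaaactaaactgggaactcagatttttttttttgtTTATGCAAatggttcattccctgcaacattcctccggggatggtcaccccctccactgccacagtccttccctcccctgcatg
Cfd: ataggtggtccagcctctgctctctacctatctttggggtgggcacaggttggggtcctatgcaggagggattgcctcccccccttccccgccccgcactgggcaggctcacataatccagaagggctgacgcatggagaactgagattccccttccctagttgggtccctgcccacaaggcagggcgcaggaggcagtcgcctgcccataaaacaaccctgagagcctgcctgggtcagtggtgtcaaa
In these windows Klkb1 held 1 match each to the C/EBP, nuclear receptor and FOXA motifs, Kng1l1 and C6 1 each to the C/EBP and nuclear receptor motifs, and C1r 1 to C/EBP. No 2 of these matches overlapped. F5, which fell, and Cfd, which rose, held none of the 4.

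The table matched 32 of the 41 members with 34 entries, since Fga and Kng1l1 have 2 each. The windows of each such pair overlap, so a match in their shared stretch counts for both. Windows of F7, F11, F13b, Kng1 and Kng2, which have no expression value here, are included. C1s, C2, C8g, C9, Cfb, Cpb2, F8, Hrg and Masp2 are named only. The HNF1 half-site was found in 32.4% of the 34 windows, against 6.45% of all 33469 windows of that length. C/EBP was found in 41.2% against 9.22%, the nuclear receptor half-site in 38.2% against 14.1%, and FOXA in 14.7% against 3.21%. The 4 motifs were chosen after the expression values had been seen, and the windows were not matched on base composition. A match describes letters and not binding.

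The largest falls in each of the 4 comparisons with vehicle were those of Klkb1 and Kng1l1, of the contact and kinin genes. All 3 measured members of this group fell in all 4 comparisons, in which 13.1% to 18.9% of all genes fell. Klkb1 encodes plasma prekallikrein, the protease that frees bradykinin. At 48 h Klkb1 read 2379, 2812, 2178, 1962 and 3017 in the vehicle wells, 355, 299, 186, 332 and 515 at 8 µM, and 333, 397, 398, 115 and 520.1 at 200 µM. At 24 h Klkb1 read 4001, 4169, 5198, 2971 and 3602 in the vehicle wells, 769, 613, 847, 736 and 794 at 8 µM, and 894, 814, 814, 704 and 1044 at 200 µM. At both times every treated well lay below every vehicle well. The mean was 337 ± 119 at 8 µM, against 2469.6 ± 438 in vehicle wells (SD, n = 5) at 48 h. Log2 fold changes were -2.86 ± 0.24 at 8 µM (adjusted p = 1.52e-11) and -2.88 ± 0.24 at 200 µM (1.70e-11) at 48 h. At 24 h they were -2.37 ± 0.24 at 8 µM (adjusted p = 1.80e-09) and -2.19 ± 0.24 at 200 µM (1.10e-08).

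Kng1l1 is one of the rat's kininogen genes, which encode precursors of kinins and inhibitors of cysteine proteases. At 48 h Kng1l1 read 20199, 19809.7, 23396, 17186 and 21943 in the vehicle wells, 1879, 1996, 2706, 2265 and 2104 at 8 µM, and 3343, 3958, 5289, 3846 and 3449.7 at 200 µM. At 24 h Kng1l1 read 23454, 24044, 27299, 25851 and 25897 in the vehicle wells, 5595, 6905, 5599, 7248 and 5918 at 8 µM, and 10261, 9684, 10342, 10108 and 8709 at 200 µM. No treated well overlapped a vehicle well, and at each time all 200 µM wells lay above all 8 µM wells. On the log2 scale the fold change at 48 h was -3.22 ± 0.10 at 8 µM (adjusted p = 8.31e-23) and -2.37 ± 0.10 at 200 µM (4.58e-19). It was -2.02 ± 0.10 and -1.36 ± 0.10 at 24 h for 8 µM and 200 µM. The other 2 kept probe sets of Kng1l1 also fell in all 4 comparisons, with log2 fold changes between -2.59 and -0.77. The rat kininogen genes are close copies, and which of them a probe set read is uncertain.

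F12 encodes factor XII, which starts the contact pathway. At 48 h F12 read 16115, 14617, 13608, 12698 and 13433 in the vehicle wells, 11594, 10159, 12810.0, 12637 and 11126 at 8 µM, and 12240.0, 10522, 12971, 11905 and 10602 at 200 µM. At 24 h F12 read 15999, 14548, 14783, 13445 and 13752 in the vehicle wells, 13114, 11662, 10005, 12004 and 12413 at 8 µM, and 11791, 11120.5, 11061, 10679 and 12041 at 200 µM. The groups overlapped at 48 h at both doses, only at the odd vehicle array (12698), while at 24 h all treated wells lay below all vehicle wells. Its log2 fold changes were -0.27 ± 0.08 at 8 µM and -0.27 ± 0.08 at 200 µM at 48 h, and -0.30 ± 0.08 at 8 µM and -0.35 ± 0.08 at 200 µM at 24 h, with adjusted p-values between 4.61e-04 and 0.00447.

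**Figure D2:**
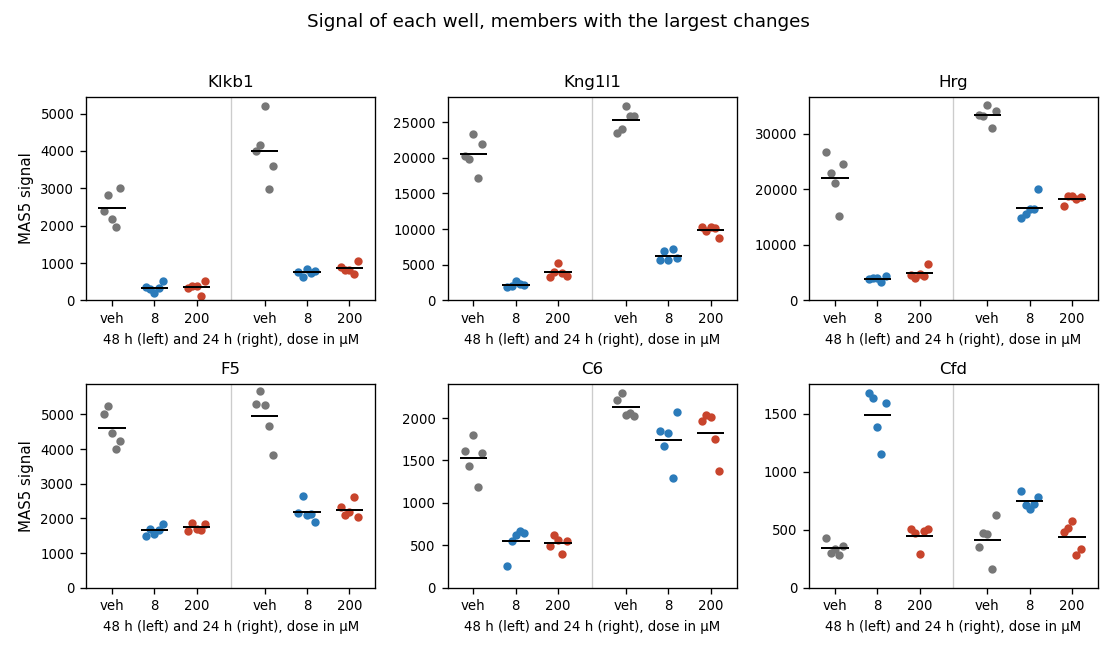
MAS5 signal (linear axis from 0) of each well for 6 members, with vehicle, 8 µM and 200 µM at 48 h on the left and at 24 h on the right of each panel; black bars are group means (n = 5). Klkb1, Kng1l1, Hrg and F5 fell at both times and doses, C6 at 48 h, and Cfd stood high at 8 µM.

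Of the 3 fibrinolysis genes, all fell in each of the 4 comparisons, against 13.1% to 18.9% of all genes. Hrg encodes histidine-rich glycoprotein, which binds plasminogen and heparin. At 48 h Hrg read 26716, 22974, 21162, 15154 and 24516 in the vehicle wells, 3919, 3985, 3965, 3249.7 and 4309 at 8 µM, and 4591, 4036, 4796, 4317 and 6571 at 200 µM. At 24 h Hrg read 33458, 33146, 35130.1, 30995 and 34059 in the vehicle wells, 14778, 15541, 16479, 16516 and 20081 at 8 µM, and 17090.1, 18816, 18732, 18246 and 18674 at 200 µM. Treated and vehicle wells did not overlap. On the log2 scale the fold change was -2.48 ± 0.11 at 8 µM (adjusted p = 1.28e-18) and -2.18 ± 0.11 at 200 µM (5.28e-17) at 48 h, and -1.01 ± 0.11 and -0.86 ± 0.11 at 24 h for those doses.

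Plg encodes plasminogen, the precursor of the protease that dissolves fibrin. At 48 h Plg read 19764, 19923, 21956, 15990.4 and 22262 in the vehicle wells, 16054, 15447, 16880.4, 13843 and 16148 at 8 µM, and 9048, 10248, 9638, 10742 and 10674 at 200 µM. At 24 h Plg read 28968, 27569.6, 25170.5, 23653 and 27584 in the vehicle wells, 19852, 19393, 21611, 20101 and 25143 at 8 µM, and 15923, 18571, 18287, 19959.6 and 19921 at 200 µM. The 200 µM wells lay below every vehicle well at both times, whereas the 8 µM wells overlapped vehicle. At 48 h this overlap was with the odd array alone (15990.4). Its fall at 48 h was -0.98 ± 0.08 at 200 µM (adjusted p = 1.46e-11) and -0.34 ± 0.08 at 8 µM (0.00128). At 24 h it was -0.52 ± 0.08 at 200 µM and -0.33 ± 0.08 at 8 µM. Cpb2, whose product protects fibrin from plasmin, averaged 10534 ± 686 at 200 µM against 15142 ± 2621 in vehicle wells at 48 h (SD, n = 5), a log2 change of -0.51 ± 0.08 (adjusted p = 4.40e-06). Its other 3 log2 fold changes lay between -0.35 and -0.29.

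The 3 fibrinogen chain genes fell at 48 h at both doses, and at 24 h Fga and Fgb fell at 8 µM, while none of the 3 passed at 200 µM. Of all genes, 18.9% fell at 8 µM and 17.1% at 200 µM at 48 h, and 13.8% and 13.1% at 24 h. Fgg encodes the γ chain. At 48 h Fgg read 84194, 85621, 84096, 64559.7 and 94239 in the vehicle wells, 62456, 70834, 66689.9, 59181 and 60366 at 8 µM, and 68652, 69856, 72809.9, 71464 and 60492 at 200 µM. At 24 h Fgg read 85549.8, 96284, 102797, 87219 and 94258 in the vehicle wells, 78994, 85232, 85185, 77855 and 83909 at 8 µM, and 79152, 86271, 88147, 84107 and 85948 at 200 µM. At 48 h the treated Fgg wells overlapped vehicle only at the odd array (64559.7). At 24 h the 8 µM wells lay just below all vehicle wells while the 200 µM wells overlapped them. Fgg fell by 0.36 ± 0.08 at 8 µM (adjusted p = 2.55e-04) and by 0.26 ± 0.08 at 200 µM (0.00778) on the log2 scale at 48 h. Its values at 24 h, -0.18 ± 0.08 at 8 µM and -0.14 ± 0.08 at 200 µM, did not pass (adjusted p = 0.0862 and 0.219).

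Fgb encodes the β chain. At 48 h it averaged 71091 ± 9813 in vehicle wells, 32621 ± 2998 at 8 µM and 48137 ± 2898 at 200 µM (SD, n = 5), and all treated wells lay below all vehicle wells. Its log2 fold changes were -1.12 ± 0.08 at 8 µM (adjusted p = 5.94e-14) and -0.55 ± 0.08 at 200 µM (5.11e-07) at 48 h. At 24 h they were -0.30 ± 0.08 (0.00337) at 8 µM and -0.13 ± 0.08 (0.231) at 200 µM. Fga, the α chain, followed with -0.90 ± 0.08 at 8 µM and -0.53 ± 0.08 at 200 µM at 48 h, and -0.35 ± 0.08 at 8 µM and -0.21 ± 0.08 at 200 µM at 24 h. The last of these did not pass (adjusted p = 0.0641).

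**Figure D3:**
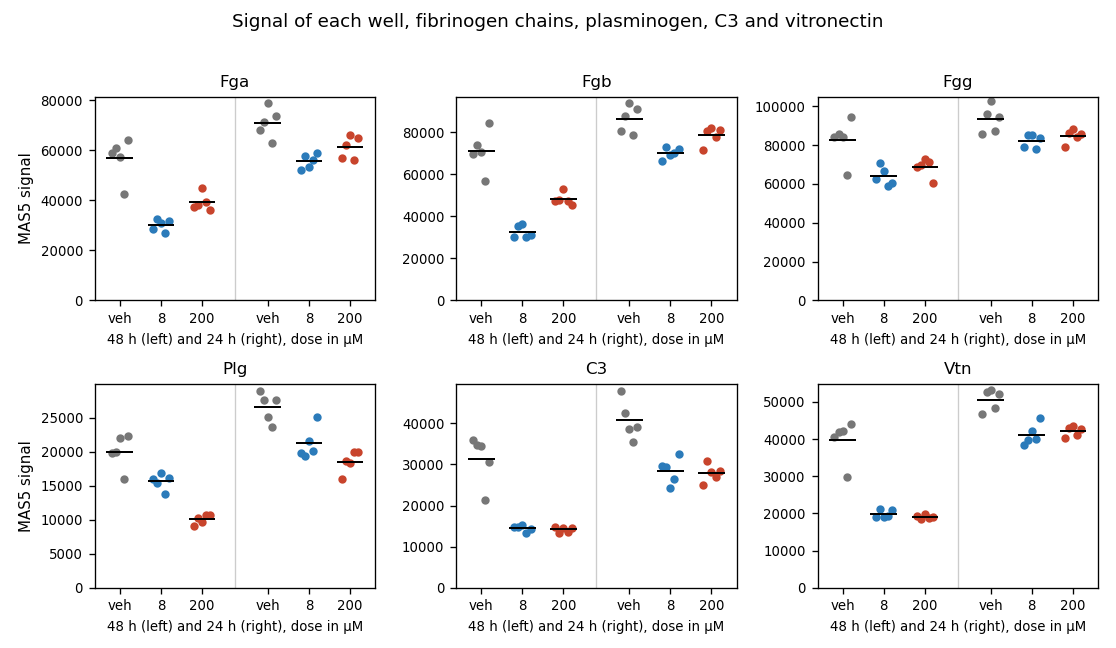
MAS5 signal (linear axis from 0) of each well for the 3 fibrinogen chains, plasminogen (Plg), C3 and vitronectin (Vtn), with vehicle, 8 µM and 200 µM at 48 h on the left and at 24 h on the right; black bars are group means (n = 5). At 48 h the Fgb wells at 200 µM, 45344 to 53041, all lie above those at 8 µM, 30138 to 36214, and the Plg wells run the other way.

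Of the procofactors, F5 fell in all 4 comparisons and F8 was not called. F5 encodes factor V, the cofactor that speeds thrombin formation. At 48 h F5 read 5024, 5233, 4470.1, 4009.8 and 4244 in the vehicle wells, 1499, 1702, 1562, 1652 and 1842 at 8 µM, and 1626, 1858, 1705, 1674 and 1837 at 200 µM. At 24 h F5 read 5305, 5672, 5275, 4658 and 3829.6 in the vehicle wells, 2154, 2633, 2101, 2115 and 1882 at 8 µM, and 2329, 2098, 2182, 2614 and 2043 at 200 µM. No treated well reached the lowest vehicle well. On the log2 scale the fold change was -1.46 ± 0.10 at 8 µM (adjusted p = 2.10e-14) and -1.39 ± 0.10 at 200 µM (1.12e-13) at 48 h, and -1.17 ± 0.10 and -1.12 ± 0.10 at 24 h. F8, which in mouse liver is made mainly by sinusoidal endothelial cells, had 48 h averages of 592 ± 215 in vehicle wells, 408 ± 45.5 at 8 µM and 406 ± 72.4 at 200 µM (SD, n = 5). Its log2 values there were -0.47 ± 0.19 (adjusted p = 0.0580) at 8 µM and -0.49 ± 0.19 (0.0504) at 200 µM. Without the odd vehicle array, where F8 read 972.5 against at most 523 in the other 4 vehicle wells, these were -0.28 and -0.30.

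Of the 5 measured vitamin K dependent genes, 2 fell in each comparison: Proc in all 4, Pros1 at 8 µM at both times, F9 at 200 µM and 48 h, and F10 at 200 µM and 24 h. Of all genes, 13.1% to 18.9% fell in these comparisons. F2 encodes prothrombin. At 48 h F2 read 60545, 60902, 57857, 41742 and 64545 in the vehicle wells, 64731, 70015, 61347, 59847 and 66756 at 8 µM, and 59476, 57196, 53182, 54469 and 53484 at 200 µM. At 24 h F2 read 63539, 66024, 67178, 55839 and 60454 in the vehicle wells, 58408, 55168, 61979, 59082 and 65419 at 8 µM, and 56350.2, 57136, 55597, 51772 and 58576 at 200 µM. Treated and vehicle wells overlapped at both times and F2 was not called, with log2 values between -0.16 and 0.19. Proc, which encodes the anticoagulant protein C, fell in all 4 comparisons, with -0.82 ± 0.10 at 8 µM (adjusted p = 4.86e-08) and -0.96 ± 0.10 at 200 µM (2.06e-09) at 48 h, and -0.67 ± 0.10 and -0.68 ± 0.10 at 24 h. All its treated wells lay below all vehicle wells.

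Pros1 encodes protein S, the cofactor of protein C, and it changed at the low dose. At 48 h it averaged 13242 ± 1502 in vehicle wells, 10509 ± 830.2 at 8 µM and 13373 ± 451 at 200 µM (SD, n = 5). The log2 fold change was -0.33 ± 0.07 at 8 µM (adjusted p = 1.80e-04) and 0.02 ± 0.07 at 200 µM (0.844) at 48 h, and -0.30 ± 0.07 and 0.00 ± 0.07 at 24 h. F10, the common-pathway protease, was higher at 8 µM and 48 h, 26329 ± 1162 against 22420.4 ± 3410.5 in vehicle wells, a log2 change of 0.25 ± 0.07 (adjusted p = 0.00903). It was lower at 200 µM and 24 h, at -0.21 ± 0.07 (0.0368). The rise was 0.14 without the odd vehicle array, and the fall lost its call in 5 of 30 refits that each left out 1 array, with adjusted p-values up to 0.0941. With all arrays F9, factor IX, passed only at 200 µM and 48 h, at -0.26 ± 0.09 (adjusted p = 0.0267). It lost that call in 6 of the 30 refits, whose adjusted p-values ran from 7.21e-07 to 0.106. Without the odd vehicle array the value was -0.40, and F9 then fell in each comparison with vehicle.

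Of the 6 recognition genes of complement, 4 fell at 48 h at both doses and 5 at 24 h. Of all genes, 18.9% fell at 8 µM and 17.1% at 200 µM at 48 h, and 13.8% and 13.1% at 24 h. The classical route's C1r and C1s fell in all 4 comparisons. C1s encodes a protease of C1. At 48 h it averaged 8941 ± 1565 in vehicle wells, 2948 ± 195 at 8 µM and 3337 ± 224 at 200 µM (SD, n = 5). Its log2 fold changes were -1.58 ± 0.09 (adjusted p = 2.44e-16) at 8 µM and -1.40 ± 0.09 (7.77e-15) at 200 µM at 48 h, and -0.996 ± 0.09 and -0.90 ± 0.09 at 24 h. C1r, its partner protease, had -1.21 ± 0.11 at 8 µM and -1.03 ± 0.11 at 200 µM at 48 h, and -0.80 ± 0.11 and -0.77 ± 0.11 at 24 h. For both genes every treated well lay below every vehicle well at both times.

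In the lectin route, Masp1 and Mbl2 fell in all 4 comparisons, Mbl1 at 24 h, and Masp2 in none. Masp1 and Masp2 encode the proteases that travel with the lectins, and Mbl1 and Mbl2 the 2 rat mannose-binding lectins. At 48 h Masp2 read 12977, 14725, 15143, 10002 and 15434 in the vehicle wells, 12562, 13254, 13862, 13946 and 14618 at 8 µM, and 12387, 12868, 11976, 11823 and 13350.3 at 200 µM. At 24 h Masp2 read 12853, 12520.0, 13237, 12489.9 and 13446 in the vehicle wells, 11482, 12229.7, 13938, 13278 and 13714 at 8 µM, and 12406, 12341, 12994, 12186 and 13335 at 200 µM. The Masp2 groups overlapped, and its log2 values lay between -0.11 and 0.01. A second kept Masp2 probe set rose in 3 of the 4 comparisons, by 0.58 ± 0.11 at 8 µM (adjusted p = 8.25e-05) and 0.33 ± 0.11 at 200 µM (0.0212) at 48 h and 0.43 ± 0.11 at 8 µM and 24 h (0.00418). The remaining kept probe set was at -0.25 ± 0.13 (0.164) at 8 µM and -0.21 ± 0.13 (0.260) at 200 µM at 48 h and was not called at either time. The 3 probe sets of this gene thus differ. Masp1 changed by -0.92 ± 0.13 at 8 µM and -1.04 ± 0.13 at 200 µM at 48 h and by -0.60 ± 0.13 and -0.65 ± 0.13 at 24 h. Mbl2 changed by -0.81 ± 0.09 and -0.62 ± 0.09 at 48 h and by -0.49 ± 0.09 and -0.71 ± 0.09 at 24 h. Mbl1 had -0.14 ± 0.12 and -0.11 ± 0.12 at 48 h, neither called, and -0.43 ± 0.12 and -0.31 ± 0.12 at 24 h. The last of these lost its call in 8 of the 30 refits, with adjusted p-values up to 0.12.

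C3 is the protein at which the routes meet. At 48 h C3 read 36004, 34651, 34570.4, 21462 and 30499 in the vehicle wells, 14763, 14694, 15217, 13217 and 14303 at 8 µM, and 14754, 13223, 14615, 13663 and 14608 at 200 µM. At 24 h C3 read 47876, 42511, 38530.5, 35565 and 39210.1 in the vehicle wells, 29616, 29396, 24161, 26524 and 32643 at 8 µM, and 24913, 30826, 28060.0, 26999.5 and 28490.3 at 200 µM. No treated well overlapped a vehicle well. The log2 fold change of C3 was -1.10 ± 0.10 at 8 µM (adjusted p = 5.71e-11) and -1.13 ± 0.10 at 200 µM (3.79e-11) at 48 h, and -0.52 ± 0.10 and -0.54 ± 0.10 at 24 h. C5, which begins the terminal steps, was 0.08 ± 0.10 and 0.08 ± 0.10 at 48 h, neither called, and fell by 0.32 ± 0.10 at 8 µM (adjusted p = 0.0135) and 0.33 ± 0.10 at 200 µM (0.0106) on the log2 scale at 24 h. The 8 µM call was lost without replicate 1 of the 24 h vehicle group (adjusted p = 0.0585).

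Cfd rose at 8 µM. It encodes factor D (adipsin), the protease of the alternative route. At 48 h Cfd read 425, 301, 335, 282 and 356 in the vehicle wells, 1682, 1636, 1386, 1154 and 1589.5 at 8 µM, and 502, 472, 286, 485 and 505 at 200 µM. At 24 h Cfd read 348, 471, 464, 162 and 628 in the vehicle wells, 838, 715, 675, 719 and 784 at 8 µM, and 478, 515, 574, 282 and 335 at 200 µM. All 8 µM wells lay above all vehicle and all 200 µM wells at both times, and the 200 µM wells overlapped vehicle. The log2 fold change was 2.08 ± 0.23 at 8 µM (adjusted p = 7.79e-09) and 0.38 ± 0.23 at 200 µM (0.233) at 48 h. At 24 h it was 0.94 ± 0.23 at 8 µM (0.00234) and 0.15 ± 0.23 at 200 µM (0.740). Its vehicle signals were near the filter of 281.

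Of the 5 terminal genes, 3 fell at each dose at 48 h (C6, C9 and C8g), and C8a rose at 8 µM. Of all genes at 48 h, 18.9% fell and 16.7% rose at 8 µM, and 17.1% fell at 200 µM. C6 encodes the subunit that joins C5b. At 48 h C6 read 1610.4, 1436, 1795, 1186 and 1586 in the vehicle wells, 261, 552, 618, 668 and 649 at 8 µM, and 489.9, 620.5, 565, 398 and 547 at 200 µM. At 24 h C6 read 2217, 2299.8, 2032, 2058 and 2019 in the vehicle wells, 1849, 1666, 1829, 1288 and 2074 at 8 µM, and 1961, 2032, 2009, 1758 and 1379 at 200 µM. At 48 h the treated and vehicle wells did not overlap, and at 24 h they did. The log2 fold change was -1.50 ± 0.17 at 8 µM (adjusted p = 1.50e-08) and -1.51 ± 0.17 at 200 µM (1.52e-08) at 48 h. At 24 h it was -0.30 ± 0.17 (0.241) and -0.23 ± 0.17 (0.405), neither called.

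C9 encodes the subunit that forms the pore. At 48 h C9 read 4553, 4753, 5364, 5120.4 and 5078 in the vehicle wells, 2954, 2897, 3316, 3185 and 2905 at 8 µM, and 3265, 3630.1, 4138, 3552 and 3488 at 200 µM. At 24 h C9 read 9173, 9209, 9262, 9087 and 10087 in the vehicle wells, 6729, 8562, 6992, 7333 and 8827 at 8 µM, and 7581, 8512, 8515, 7991 and 8415 at 200 µM. All treated wells lay below all vehicle wells. C9 fell by 0.70 ± 0.07 at 8 µM (adjusted p = 6.24e-10) and 0.46 ± 0.07 at 200 µM (2.84e-06) on the log2 scale at 48 h. At 24 h it fell by 0.29 ± 0.07 (0.00170) at 8 µM and by 0.19 ± 0.07 (0.0440) at 200 µM, the last lost in 8 of the 30 refits, with adjusted p-values up to 0.125.

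C8a, C8b and C8g encode the 3 chains of C8, which follows C6 in the attack complex. At 48 h C8a read 5214, 4875, 4349.5, 4106 and 5407 in the vehicle wells, 5563, 6274, 5556, 6027 and 6325 at 8 µM, and 5416, 5156, 4611, 5231 and 5346 at 200 µM. At 24 h C8a read 6519.6, 7017, 6657, 4778 and 6227 in the vehicle wells, 6288, 5416, 5449.8, 5356 and 5372 at 8 µM, and 5153, 5079.5, 4954, 5763 and 4163 at 200 µM. The 8 µM wells of C8a lay above all vehicle wells at 48 h and the other comparisons overlapped. The log2 fold change of C8a was 0.32 ± 0.09 at 8 µM and 48 h (adjusted p = 0.00499) and at -0.31 ± 0.09 at 200 µM and 24 h (0.00893), and its other values, 0.11 ± 0.09 at 200 µM and 48 h and -0.15 ± 0.09 at 8 µM and 24 h, did not pass. C8b fell at 24 h, by 0.24 ± 0.07 at 8 µM and 0.25 ± 0.07 at 200 µM on the log2 scale, and its 48 h values were 0.03 ± 0.07 and -0.13 ± 0.07.

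At 48 h C8g read 24029, 24872, 23181, 18319 and 23855 in the vehicle wells, 19239.6, 19239, 20122, 19455 and 21656 at 8 µM, and 18875, 19136, 18872, 18203 and 18026 at 200 µM. At 24 h C8g read 33610.5, 32489, 34285, 31673 and 33444 in the vehicle wells, 27957, 27713, 30775, 30609.6 and 31778 at 8 µM, and 29301, 31233, 31504, 27071 and 29652 at 200 µM. Except for the odd array, whose C8g signal was 18319, every 48 h vehicle well lay above every treated well. At 24 h the 200 µM wells lay below all vehicle wells and the 8 µM wells overlapped them. C8g fell by 0.19 ± 0.06 at 8 µM (adjusted p = 0.0184) and 0.29 ± 0.06 at 200 µM (5.03e-04) on the log2 scale at 48 h, but with median centring the 8 µM value was 0.0023 and not called. The 8 µM call was also lost without replicate 1 or replicate 2 of the 48 h vehicle group (adjusted p = 0.0508 and 0.0631). Its values at 24 h, -0.15 ± 0.06 at 8 µM and -0.16 ± 0.06 at 200 µM, did not pass.

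All 4 regulators fell at 48 h at both doses, where 18.9% of all genes fell at 8 µM and 17.1% at 200 µM. Cfi encodes factor I, which cleaves C3b and C4b. At 48 h Cfi read 44659, 46334, 46450.5, 33657 and 49728 in the vehicle wells, 30313, 33383, 30745, 29437 and 32119.8 at 8 µM, and 33915, 31972, 32610.0, 32551 and 29844 at 200 µM. At 24 h Cfi read 47662, 50545, 54519.6, 47808 and 53253 in the vehicle wells, 37462, 39427, 39394, 38978 and 39664 at 8 µM, and 38261, 41729.6, 40581, 39644 and 40880.3 at 200 µM. At 24 h treated and vehicle wells did not overlap, and at 48 h only the lowest vehicle well was within the range of the 200 µM wells. Cfi fell by 0.49 ± 0.07 at 8 µM (adjusted p = 6.31e-07) and 0.45 ± 0.07 at 200 µM (3.76e-06) on the log2 scale at 48 h, and by 0.38 ± 0.07 and 0.33 ± 0.07 at 24 h.

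Vtn encodes vitronectin, which keeps the attack complex out of host membranes. At 48 h it averaged 39744 ± 5626 in vehicle wells, 19872 ± 1090.4 at 8 µM and 19119 ± 589 at 200 µM (SD, n = 5). Its log2 fold changes were -0.99 ± 0.07 (adjusted p = 2.78e-13) and -1.04 ± 0.07 (9.69e-14) at 48 h for 8 µM and 200 µM, and -0.30 ± 0.07 and -0.26 ± 0.07 at 24 h. C4bpa and C4bpb encode the chains of C4b-binding protein, a cofactor of factor I. C4bpa changed by -0.30 ± 0.08 at 8 µM and -0.62 ± 0.08 at 200 µM at 48 h, and by -0.23 ± 0.08 and -0.35 ± 0.08 at 24 h, where the 8 µM call was lost in 5 of the 30 refits. C4bpb changed by -0.90 ± 0.10 and -0.79 ± 0.10 at 48 h, and its 24 h values of -0.21 ± 0.10 and -0.26 ± 0.10 did not pass (adjusted p = 0.136 and 0.0558).

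The doses differed by the test for 9 members at 48 h and 2 at 24 h. At 48 h, 200 µM was lower than 8 µM for 4 members (of 34, against 2.53% of all genes) and higher for 5 (against 2.26%). At 24 h it was lower for 0 (against 1.63%) and higher for 2 (against 1.39%). Fgb averaged 48137 ± 2898 at 200 µM and 32621 ± 2998 at 8 µM at 48 h (SD, n = 5), a log2 difference of 0.56 ± 0.08 (adjusted p = 5.67e-06). The 5 higher members were Fgb, Kng1l1, Fga, Pros1 and C9. Kng1l1 differed by 0.85 ± 0.10 (6.95e-07), Fga by 0.38 ± 0.08 (0.00529), Pros1 by 0.35 ± 0.07 (8.95e-04) and C9 by 0.24 ± 0.07 (0.0396). Those lower at 200 µM were Cfd, Plg, C4bpa and F10. Cfd differed by -1.71 ± 0.23 (7.04e-06), Plg by -0.64 ± 0.08 (2.78e-06), C4bpa by -0.32 ± 0.08 (0.0133) and F10 by -0.28 ± 0.07 (0.0221).

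At 24 h the called pair was Kng1l1, at 0.66 ± 0.10 (adjusted p = 8.85e-05), and Pros1, at 0.30 ± 0.07 (0.00591). Cfd, at -0.79 ± 0.23, did not pass (0.0562). Other kept probe sets did not all show these dose differences (their p-values are adjusted over all kept probe sets). Those of Kng1l1 were at 0.01 ± 0.21 (0.996) and 0.42 ± 0.07 (2.83e-04) at 48 h, and at 0.32 ± 0.21 (0.705) and 0.13 ± 0.07 (0.536) at 24 h, so 1 of these 4 values passed. The probe set at 0.01 and 0.32 was dim, with treated wells between 138.7 and 610.4. With signals mostly near the filter, it cannot decide whether the doses differ. At 48 h the second Fgb probe set was at 0.04 ± 0.27 (0.992) and the second Fga probe set at 0.38 ± 0.11 (0.0596), neither called. Without the odd vehicle array the counts at 48 h were 6 lower and 6 higher, and at 24 h 1 and 2. Of all genes, 4.64% were then lower and 4.34% higher at 48 h, and 3.14% and 2.72% at 24 h. The gains among the members were of Cpb2, F2 and Hrg at 48 h and of Cfd at 24 h. With median centring 2 members were lower and 1 higher at 48 h and 0 were called at 24 h. The C9 call at 48 h was lost in 7 of the 30 refits, with adjusted p-values up to 0.165, that of F10 in 4, and that of C4bpa without replicate 5 of the 8 µM group (0.051).

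Members also differed with time in vehicle wells. At 48 h 16 of 34 were lower than at 24 h (47.1%, against 5.4% of all genes) and 0 were higher (against 4.46%). C9 averaged 4974 ± 320.2 at 48 h and 9364 ± 409 at 24 h (SD, n = 5), with no overlap between wells, a log2 difference of -0.91 ± 0.07 (adjusted p = 2.27e-11). Hrg, whose wells did not overlap either, differed by -0.62 ± 0.11 (2.71e-04). These were the 2 largest differences with time among the members called. Klkb1, at -0.68 ± 0.24, did not pass (0.0739). The terminal genes C8b, at -0.58 ± 0.07, and C8g, at -0.54 ± 0.06, followed, with adjusted p-values of 4.64e-07 and 2.03e-07. All 4 regulators were lower, with log2 differences between -0.43 and -0.21. The other members that were lower were C1r (-0.36 ± 0.11), Mbl1 (-0.35 ± 0.12), C3 (-0.39 ± 0.10), C8a (-0.38 ± 0.09), F10 (-0.36 ± 0.07), Fga (-0.33 ± 0.08), Fgb (-0.29 ± 0.08) and Plg (-0.42 ± 0.08). Without the odd array 14 were lower, with the calls of C1r and Cfi lost, and 1, Masp2, was higher, while C3 stood at -0.26 and Cfi at -0.12. Of all genes, 4.64% were then lower and 6.04% higher. With only the vehicle arrays fitted 8 members were called, and with median centring 6. For Fgb the mean of its probe sets gave 0.24 instead, not called. The calls of Cfi and Mbl1 were lost in 23 and 21 of the 30 refits, that of C1r in 5 and that of C4bpa in 2, with adjusted p-values up to 0.131.

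For 10 members at 8 µM and 9 at 200 µM the log2 fold change was more negative at 48 h than at 24 h, by the test of that difference. The 10 at 8 µM (of 34, against 1.23% of all genes) stood beside 1 whose effect was higher (against 1.67%). The 9 at 200 µM (against 1.11%) stood beside 0 (against 1.3%). The differences for Hrg were -1.48 ± 0.16 at 8 µM (adjusted p = 1.98e-07) and -1.31 ± 0.16 at 200 µM (2.03e-06). For C6 they were -1.20 ± 0.25 (0.00342) and -1.28 ± 0.25 (0.00203), and for Kng1l1 -1.20 ± 0.15 (1.52e-06) and -1.01 ± 0.15 (3.18e-05). On 1 of its other probe sets Kng1l1 had 0.07 ± 0.30 (0.959) and -0.23 ± 0.30 (0.823), not called. That probe set was dim, with treated wells between 138.7 and 610.4, and exceeded the filter on 20 arrays. With treated signals mostly near the filter, it cannot decide whether the fall changed with time. The remaining probe set had -0.73 ± 0.10 (2.20e-05) and -0.45 ± 0.10 (0.0141), called. Vtn had -0.69 ± 0.10 (4.00e-05) and -0.78 ± 0.10 (6.15e-06).

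C1s, C3, C4bpb and Fgb were also called at both doses, with values between -0.82 and -0.42. The second Fgb probe set, with group means between 402 and 722, had -0.83 ± 0.38 and -0.91 ± 0.38, not called. C9, at -0.41 ± 0.10, Fga, at -0.55 ± 0.12, and C8a, at 0.47 ± 0.13, were called at 8 µM, and Plg, at -0.46 ± 0.12, at 200 µM. Whether the 2 doses differ in this was not tested. Klkb1 and F5, among the largest falls at each time, were not called, with -0.50 ± 0.35 and -0.68 ± 0.35 for Klkb1 and -0.29 ± 0.14 and -0.27 ± 0.14 for F5. Since the vehicle wells of 48 h enter each difference, it was repeated without the odd array, which gave 14 lower and 2 higher at 8 µM and 12 and 0 at 200 µM. Of all genes, 2.7% were then lower and 2.34% higher at 8 µM, and 2.32% and 1.91% at 200 µM. With median centring 2 members were called at 8 µM and 0 at 200 µM, and fitting only the arrays compared left 4 at 200 µM. The 200 µM calls of C4bpb, Fgb, Plg and C1s were lost in 13, 9, 7 and 1 of the 30 refits and the 8 µM call of C8a in 12, with adjusted p-values up to 0.0971.

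**Figure D4:**
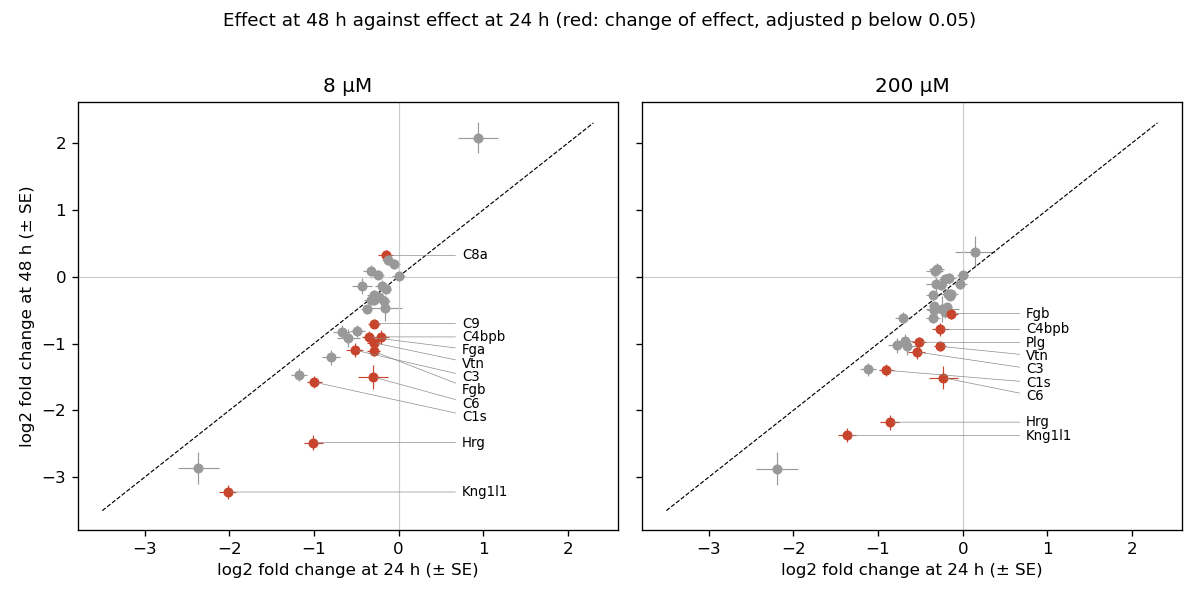
Log2 fold change against vehicle at 48 h (vertical, ± SE) and at 24 h (horizontal, ± SE) of the 34 measured members, for 8 µM (left) and 200 µM (right); the dashed line marks equal effects. Red points, named, are the 11 members at 8 µM and 9 at 200 µM whose effect differed between the times; all but C8a lie below the line.

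Several members were read by more than 1 probe set. P-values of single probe sets are adjusted over all 21282 kept. The brightest stands for each gene, and the other 9 kept probe sets of 7 genes gave 36 comparisons with vehicle. In 20 both were called in the same direction, in 0 in opposite directions, in 10 neither was called, in 2 the one used alone and in 4 the other alone. The probe sets of Kng1l1 lay furthest apart in size, from -1.64 ± 0.07 to -3.22 ± 0.10 at 8 µM and 48 h, and those of Fga came next there. The second Fga probe set had log2 fold changes of -1.95 ± 0.11 at 8 µM (adjusted p = 1.23e-15) and -1.57 ± 0.11 at 200 µM (4.50e-13) at 48 h, and -1.30 ± 0.11 and -0.96 ± 0.11 at 24 h, each more negative than that of the probe set used. The second Fgb probe set was -0.83 ± 0.27 and -0.79 ± 0.27 at 48 h and -0.01 ± 0.27 and 0.12 ± 0.27 at 24 h. Its group means lay between 402 and 722, against 32621 to 86362 for the Fgb probe set used. Which transcripts each reads was not tested.

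**Figure D5:**
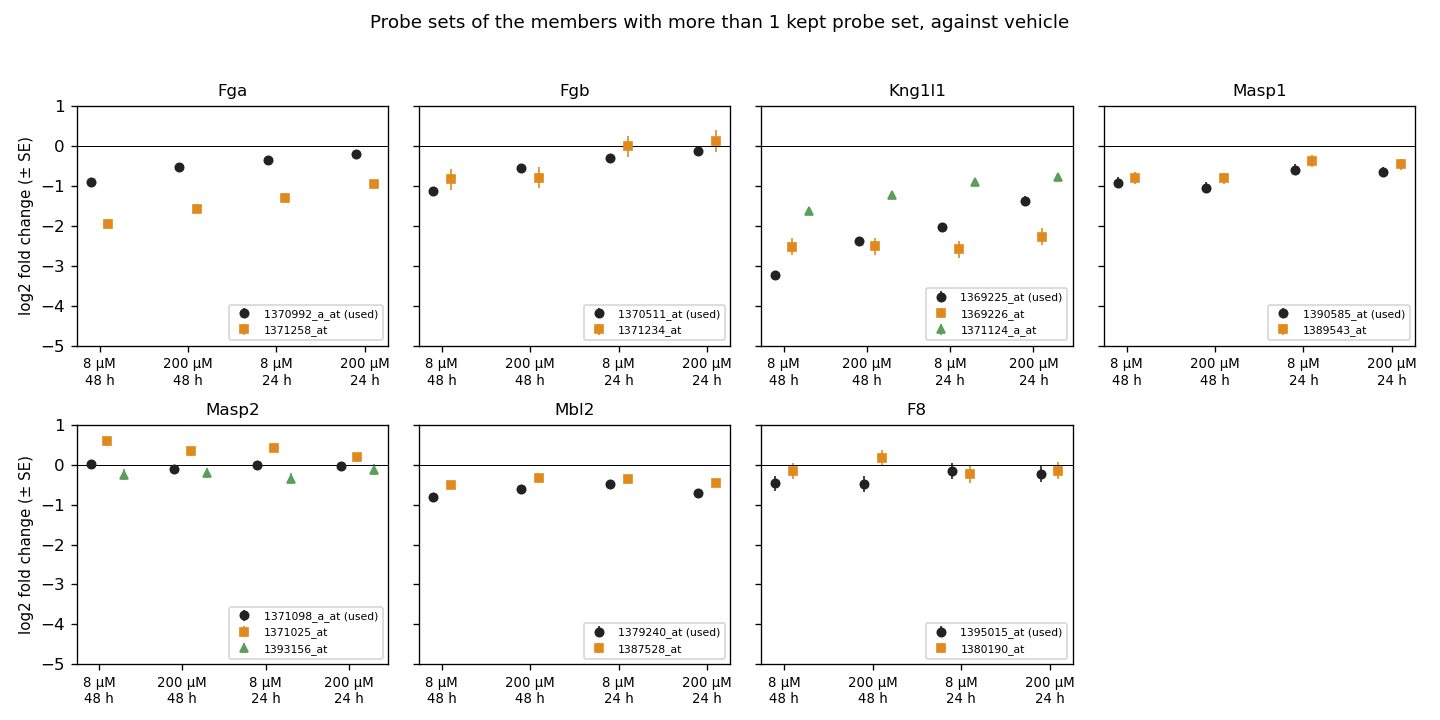
Log2 fold change against vehicle (± SE) of each kept probe set of the 7 members with more than 1, for 8 µM and 200 µM at 48 h and then at 24 h; black circles are the probe sets used. The second Fga probe set lies lower than the one used in all 4 comparisons, and the 3 Masp2 probe sets lie on both sides of 0.

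Other genes of the systems were read from lists of related genes. Those named of the vitamin K cycle, the other plasma proteins and the transcription factors were chosen after their values were seen. Of 7 measured serpins of the cascades (8 listed), 4 fell in each of the 4 comparisons and 1 rose (57.1% fell, against 18.9% of all genes at 8 µM and 48 h). Serpind1 (heparin cofactor II) stood at -1.68 ± 0.15 at 8 µM and -1.57 ± 0.15 at 200 µM on the log2 scale at 48 h. Serpine2 (protease nexin-1) rose by 2.78 ± 0.10 and 2.62 ± 0.10 at 48 h and by 3.19 ± 0.10 and 3.02 ± 0.10 at 24 h. Of 16 measured coagulation genes outside the members, 6 fell and 1 rose at 8 µM and 8 fell and 0 rose at 200 µM at 48 h, and 5 fell and 1 rose at each dose at 24 h. The shares that fell at 48 h were 37.5% and 50%, against 18.9% and 17.1% of all genes. At 24 h the share that fell was 31.2% at each dose, against 13.8% at 8 µM and 13.1% at 200 µM. A2m (α2-macroglobulin, an acute-phase protein in rat) was at -2.08 ± 0.11 and -2.14 ± 0.11 at 48 h, and Plat (tissue plasminogen activator) at -0.55 ± 0.13 and -1.03 ± 0.13. Between the doses at 48 h, 200 µM against 8 µM, Tfpi (tissue factor pathway inhibitor) differed by -0.53 ± 0.12 and Plat by -0.47 ± 0.13. The effect changed with time most for A2m, by -1.80 ± 0.15 at 200 µM, and for Procr (the protein C receptor), by -1.003 at 8 µM, and among the serpins for Serpind1, by -0.80 ± 0.21 at 8 µM. In vehicle wells at 48 h against 24 h, Plat differed by 0.97 ± 0.13, F2r (a thrombin receptor) by 0.62 ± 0.17, Serpine2 by 1.28 ± 0.10 and Serpind1 by -0.59 ± 0.15.

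Of the 6 vitamin K cycle genes, 4 fell and 1 rose at 8 µM and 2 fell at 200 µM at 48 h. The shares that fell were 66.7% and 33.3%, against 18.9% and 17.1% of all genes. The share that rose at 8 µM, 16.7%, was that of all genes. Vkorc1, the reductase that renews vitamin K, was at -1.02 ± 0.07 and -0.90 ± 0.07, and Ggcx, the carboxylase, at -0.04 ± 0.07 and -0.07 ± 0.07, not called. Vkorc1, Ggcx and Vkorc1l1 are also counted among the coagulation genes. Vkorc1l1, at 0.30 ± 0.06, is the gene that rose in both lists at 8 µM and 48 h. Of 14 measured complement genes outside the members, 3 fell and 1 rose at 8 µM and 5 fell and 1 rose at 200 µM at 48 h. At 24 h 2 fell at each dose, with 1 rise at 8 µM and 2 at 200 µM. The shares that fell, 21.4% at 8 µM and 48 h and 14.3% at each dose at 24 h, are near those of all genes, and at 200 µM and 48 h the share was 35.7% against 17.1%. Crp (C-reactive protein) was at -1.43 ± 0.16 at 8 µM and -0.42 ± 0.16 at 200 µM. C1qb, a Kupffer cell marker here, was at 0.02 ± 0.35 at 8 µM, not called, and at -1.44 ± 0.35 at 200 µM. Between the doses at 48 h, 200 µM against 8 µM, C1qb differed by -1.46 ± 0.35 and Crp by 1.01 ± 0.16. In vehicle wells at 48 h against 24 h, C1qb differed by -1.51 ± 0.35 and Cd55, a complement regulator on cell membranes, by 0.85 ± 0.25.

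Of 7 measured plasma proteins of other kinds, 1 fell at 8 µM and 2 at 200 µM at 48 h, with a list median of -0.004 and -0.14. The shares that fell were 14.3% and 28.6%, against 18.9% and 17.1% of all genes. Alb (albumin), at 0.06 ± 0.08 and -0.08 ± 0.08, was not called, and Ahsg (fetuin-A) fell at -1.20 ± 0.08 and -0.99 ± 0.08. Of 9 measured liver transcription factors, 5 fell and 2 rose at each dose at 48 h. The share that fell was 55.6%, against 18.9% of all genes at 8 µM and 17.1% at 200 µM. The share that rose was 22.2%, against 16.7% and 16.8%. Onecut1 was at -1.50 ± 0.21 and -1.17 ± 0.21, Foxa3 at -0.69 ± 0.11 and -1.12 ± 0.11, and Nr1h4 (FXR) at 1.14 ± 0.08 and 1.14 ± 0.08, while Hnf4a, at -0.09 ± 0.06 and 0.12 ± 0.06, was not called. Whether these genes bear on the members was not tested.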

How the data were processed

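Gene expression was measured on 30 Affymetrix rat arrays, 1 per well, with 5 wells in each of 6 groups assigned from the sample labels. The deposited values are MAS5 signal intensities on a linear scale, per the submitters' processing notes and the values themselves; the MAS5 version is not given in the sources used here. The authors' scaling left each array with a trimmed mean between 1500.45 and 1500.7, which removes any change in total signal.

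From these intensities, log2(signal + 16) was computed, so fold changes of low genes are understated. Of the 31099 probe sets, 57 were controls and were set aside. GEO's platform annotation gave 1 symbol to 20832 of the 31099, several to 436 and none to 9831. Probe sets above the 40th percentile of all values (281) on at least 5 arrays were kept (21282), and the one with the highest mean log2 signal stood for a gene, leaving 11545 genes. A 6-group linear model over all 30 arrays was fitted with limma 3.58.1 (lmFit, contrasts and eBayes with a variance trend, 24 residual degrees of freedom) in R 4.3.3, with Benjamini-Hochberg adjustment over all genes in each contrast and a threshold of 0.05. Errors written after a log2 value are standard errors of that fit. The number of arrays limits the precision. The steps were tested on simulated data.

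The members and all lists were chosen with earlier results of these data known. Every well was printed for the 3 largest falls and 2 largest rises among called members in each comparison with vehicle, the 2 largest changes in vehicle over time, and the brightest member of each role group. For related complement, coagulation and serpin genes, counts were given with the 2 largest called changes of a list against vehicle, between doses and between times. Alternatives were 2 other pseudocounts, 2 other filters, quantile normalization, median centring, averaging all kept probe sets of a gene, array weights, no variance trend, a fit of only the arrays compared, a block, and each array left out in turn. Promoter sequences are RefSeq's on GRCr8. Probe sets annotated with several genes were not analysed. Figures were drawn with matplotlib 3.10.9.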

Additional observations from a re-analysis of the deposited data

Results flagged for a closer look

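Among 204 combinations of a member and a group of 5 wells, 13 held a well far from the other 4 by Dixon's gap test, where chance flags about 1 in 20. At replicate 4 of the 48 h vehicle group, the array that stood apart, there were 6: C8b (5111.3), C8g (18318.8), F9 (16487.8), F10 (16332.6) and Vtn (29922.2) were low and F8 (972.5) was high. The other 7 were spread over other arrays. At 8 µM and 48 h, C6 was low in replicate 1 (261.0). At 200 µM and 48 h, Cfd was low in replicate 3 (286.3) and Masp1 in replicate 1 (755.9). At 24 h, C8a was high (6288.0 in replicate 1) and F8 low (245.1 in replicate 2) at 8 µM, Mbl2 was high at 200 µM (10659.3 in replicate 4), and C9 was high in vehicle wells (10086.8 in replicate 5).

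The effect of WY-14643 differed between 48 h and 24 h by the interaction test for 20 combinations of a member and a dose. At 8 µM the log2 fold change was lower at 48 h by the following differences: Hrg -1.48, C6 -1.20, Kng1l1 -1.20, Fgb -0.82, Vtn -0.69, C4bpb -0.69, C3 -0.58, C1s -0.58, Fga -0.55 and C9 -0.41, and for C8a it was higher, by 0.47. At 200 µM the differences were Hrg -1.31, C6 -1.28, Kng1l1 -1.01, Vtn -0.78, C3 -0.58, C4bpb -0.53, C1s -0.50, Plg -0.46 and Fgb -0.42. The 2 doses share their vehicle wells, so these differences are not independent of each other.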

How the results depend on the processing

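Of the values recomputed without 1 array at a time, 8962 kept their call and its direction or stayed uncalled, 140 lost a call and 78 gained one. Under the other alternatives these were 3430, 139 and 92, and 2 called values changed sign: C8g at 8 µM and 48 h, 0.0023 with median centring, and Fgb in vehicle over time, 0.24 with the mean of its probe sets. Sign changes of values that stayed uncalled were not counted. The cause was not tested. With median centring of all 30 arrays the members called were 15 at 200 µM and 48 h, 9 at 8 µM and 24 h, 10 at 200 µM and 24 h, 3 and 0 for 200 µM against 8 µM at 48 h and 24 h, 6 for vehicle over time, and 2 and 0 for the change of the 8 µM and 200 µM effects. With the odd vehicle array left out, an alternative chosen after seeing the data, that centring gave 26, 23, 20, 9, 3, 10, 12 and 10. At 8 µM and 48 h the centring of all 30 arrays left 18 called, against 27 in the main fit. Array weights gave 4 for 200 µM against 8 µM at 24 h, fitting only the arrays compared gave 8 for vehicle over time and 4 for the change of the 200 µM effect, and quantile normalization gave 14 for the last. Leaving out 1 array gave 26 to 28 called at 8 µM and 23 to 27 at 200 µM at 48 h, 22 to 28 at 8 µM and 19 to 27 at 200 µM at 24 h, 7 to 12 and 2 to 3 for 200 µM against 8 µM at 48 h and 24 h, 13 to 17 for vehicle over time, and 10 to 16 and 6 to 12 for the changes of the 8 µM and 200 µM effects. The labels number the arrays and give no replicate number shared between groups, but each run of 6 consecutive arrays holds 1 well of every group. With that run as a block the members called were 28 and 24 at 48 h and 24 and 23 at 24 h for 8 µM and 200 µM, 9 and 3 for 200 µM against 8 µM at 48 h and 24 h, 18 for vehicle over time, and 13 and 9 for the changes of the 8 µM and 200 µM effects. Members at low signal, such as Cfd, F8 and, in treated wells at 48 h, Klkb1, have the least support over background.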
